A study of Mus musculus with 11 samples.

Results

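MamBo38HER2loss was sequenced in 4 libraries whose titles hold one of 2 number codes. One code is that of a single library, MAMBO38NT241016. The other is shared by MAMBO38NT190617, MAMBO38TRNT190617 and MAMBO38TRT190617, called the trio here. Genes were compared between the single library and the trio, as a measure of the variation between cultures and library sets of 1 cell line. A gene was taken as outside the range when its level in the single library was at least 2-fold above the highest, or at least 2-fold below the lowest, of the trio. Of 21846 genes in the table, 10059 were measured, meaning at least 5 CPM (counts scaled to library size) in the single library or on average in the trio. Of the measured genes, 416 (4.14%) were outside the range, 288 higher (2.86%) and 128 lower (1.27%) in the single library. Of 33 genes in a list for mitosis (G2/M), 32 were higher. Genes of DNA replication were higher in part, as were chemokines such as Ccl9 and Cxcl2. Il6, part of a set of genes around IL-6 signaling chosen after Il6 was seen, some complement genes and some proteases were lower. Mesenchymal genes stayed inside the range.

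The MamBo lines derive from tumors of the mammary gland in virgin females of the FVBhuHER2 mouse, a strain with a human HER2 transgene. MamBo38HER2loss came from a HER2-negative tumor that grew after MamBo43HER2labile cells were injected into a mouse, and it grows as layers of spindle-like cells without HER2 at the surface. The single library was from untreated cells. The trio was made up of untreated cells, of cells that had 30 days of trastuzumab at 30 µg/ml followed by 30 days off it, and of cells that had 60 days of it at the same dose. Trastuzumab is an antibody to human HER2. Values of the trio are given in that order. The other 7 libraries, which carry the code of the single library, were from MamBo43HER2labile (untreated, and under each trastuzumab schedule) and from MamBo89HER2stable (untreated, a second untreated library labelled AG3, and under each schedule).

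The codes are numbers in the sample titles and are not explained there. With 1 library on one side, the culture, its time and passage, RNA extraction and library preparation cannot be told apart. In such bulk libraries, a larger share of cells in one state and more RNA per cell cannot be told apart either.

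In a dividing cell, the genome is copied in S phase and the chromosomes are parted in mitosis. Genes for mitosis are transcribed mainly in G2 and M phase, under factors that include FOXM1 and B-MYB, and genes for DNA replication mainly at the start of S phase under E2F factors. Both sets therefore follow the share of cells in those phases in a bulk library.

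Total counts were 17946758 in the single library and between 17263613 and 27127662 in the trio, so that 3 counts correspond to 0.114 to 0.179 CPM in these libraries. Of the 6 mesenchymal markers all were measured, with a summed level of 19679 CPM in the single library and 26380 to 28925 CPM in the trio. Most of that sum was Fn1, which lay below the trio, while Vim lay above it (values below). The wider list of 30 mesenchymal genes, which leaves out Fn1, summed to 10200 CPM against 7944, 8624 and 8957 CPM. None of the 6 epithelial markers was measured (2.67 CPM in sum, against 1.297 to 2.58 CPM). Lymphocyte markers summed to at most 0.240 CPM in each library. Of the 6 macrophage markers, 4 stayed under 1 CPM and Adgre1 had no count, while the summed level was 61.4 CPM in the single library against 35.0 to 44.7 CPM. The part of such cells in the results below was not tested. The human transgene is not among the mouse genes counted. Mouse Erbb2 stood at 23.97 CPM in the single library and at 19.07, 18.5 and 17.9 CPM in the trio.

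The trio lay close together across its trastuzumab schedules. Its spread reached 2-fold in 41 measured genes (0.408%), 14 of which were also outside the range, and each pair of them differed 2-fold in 19 to 22 genes. The single library differed 2-fold from each of them in 555, 717 and 568 genes. The median absolute log2 difference was 0.10 to 0.13 within the trio and 0.23 to 0.30 across the codes. No pair held the same values, and within the trio the counts differed by more than sampling noise, with a chi-square of 9.34 to 12.7 for each degree of freedom. The single library lay above all 3 libraries for 4197 measured genes and below all 3 for 3913 (80.6% of them together), so a position outside the range by any amount was common.

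The fold rule left 288 higher genes (2.86% of those measured) and 128 lower genes (1.27%). Levels were low for many of them. The median level of the higher genes was 20.0 CPM in the single library and 6.25 CPM in the trio, and that of the lower genes was 5.17 CPM and 15.2 CPM. Of the higher genes, 39 were 4-fold or more past the range, as were 24 of the lower genes. At the threshold, Apol9b was 2.006-fold above the highest trio library and Ehbp1, which missed the rule, was 1.997-fold above it. Pard6a was 2.005-fold below the lowest and was kept, while Slc50a1 at 1.98-fold was not.

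edgeR's quasi-likelihood test was fitted to the 4 libraries, with the single library assumed to vary like the other 3. It called 631 of 12220 tested genes higher (5.16%) and 415 lower (3.4%) with thresholds of 0.1 for the adjusted p and 1 for the size of the log2 fold change. All 288 higher and all 128 lower genes were among the calls, which come from the same libraries as the range rule and add an error rather than an independent check. The test measured the spread within the trio only, and the labels do not say that its libraries were separate cultures of one treatment. With all 11 libraries in the fit, edgeR called 588 genes, of which 574 were shared with the first fit. Of the 288 higher genes, 259 were called in that fit, as were 101 of the 128 lower genes. Genes named here as outside the range that were not called in that fit were Ccl2, Tnfaip3, Ifit1, Ifit3, Oasl2, Apol9b, Acta2, Pcolce2, C3, Mmp13, Fabp5, Ankrd37, Fibin and Gm28539.

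**Figure D1:**
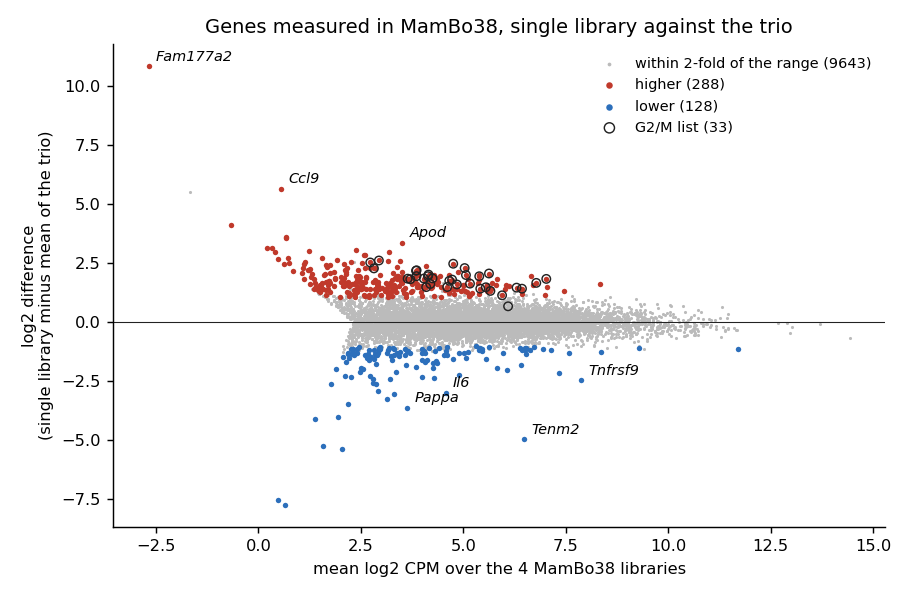
Each point is a measured gene, with the mean log2 CPM of the 4 MamBo38 libraries on the x axis and the log2 difference of the single library from the mean of the trio on the y axis. Red marks the 288 higher genes, blue the 128 lower genes, and circles the 33 genes of the G2/M list, which all lie above 0.

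Among the gene lists, the most uniform difference was in the G2/M list, whose genes were higher in the single library. Of the 33 genes of the G2/M list, 32 were outside the range and higher (against 2.86% of all measured genes), and none was lower. All 33 lay above all 3 trio libraries. The median log2 difference of the list was 1.82, with single genes between 0.66 and 2.60, while the median over all measured genes was 0.01. Summed over the list, the level was 2860 CPM in the single library and 903, 858 and 950 CPM in the trio, a ratio of 3.16 to their mean. edgeR called the same 32 genes higher in this fit, and 32 of the list in each of the other fits, DESeq2 and the fit of all 11 libraries included.

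Among the kinases of mitosis named here, Bub1 had the largest difference. Bub1, a kinase of the spindle checkpoint, stood at 29.6 CPM in the single library and at 4.66, 4.59 and 5.39 CPM in the trio. Its log2 fold change in edgeR was 2.59 ± 0.15 (SE, n = 1 and 3, adjusted p = 4.0e-07). The trio values lay close together, and the single library was 5.49-fold above the largest of them. Aurkb, the kinase of the chromosomal passenger complex, was at 45.1 CPM against 10.9, 8.77 and 10.2 CPM. Plk1, a kinase of mitotic entry and spindle assembly, was at 42.6 CPM against 10.8, 11.8 and 13.2 CPM. Cdk1, the kinase that drives entry into mitosis, was higher by less, with 110 CPM against 49.6, 53.4 and 49.2 CPM, 2.07-fold past the range.

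Structural genes of the kinetochore and spindle followed the same order. Cenpf, a kinetochore protein, was at 96.9 CPM in the single library and at 18.8, 14.9 and 19.5 CPM in the trio (log2 fold change 2.44 ± 0.13, edgeR adjusted p = 2.6e-07). Nuf2, a subunit of the complex that binds microtubules at the kinetochore, was at 24.5 CPM against 4.66, 3.22 and 5.16 CPM. Hmmr, which acts at spindle poles, was at 107 CPM against 22.9, 19.5 and 23.95 CPM. For each of these genes the single library was more than 4-fold above the highest trio library. Mki67, the proliferation marker Ki-67, was at 114 CPM against 29.8, 27.4 and 32.9 CPM, and Top2a, topoisomerase II of dividing cells, at 259 CPM against 79.6, 75.2 and 93.8 CPM. Foxm1, which encodes the transcription factor itself, was at 62.3 CPM against 17.8, 19.6 and 18.6 CPM. The one gene of the list inside the rule was Cdc25b, a phosphatase that activates CDK1, with 96.0 CPM against 58.0, 61.0 and 63.7 CPM.

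Promoter sequences are shown for the 4 genes of the list with the largest log2 differences, since the list moved as a block. The windows run from 250 bases before to 50 bases after a RefSeq start (GRCm38.p6), and the one nearest to the start of the principal GENCODE M21 transcript was taken. Each is read 5′ to 3′ on the strand of the gene, all 4 of which lie on the minus strand: Bub1 at chr2:127831810-127832109, Nuf2 at chr1:169531415-169531714, Cenpf at chr1:189688037-189688336 and Hmmr at chr11:40733388-40733687. Capitals mark the motifs CCAAT (bound by NF-Y) and TTTGAA (the cell cycle genes homology region) on either strand.
Bub1: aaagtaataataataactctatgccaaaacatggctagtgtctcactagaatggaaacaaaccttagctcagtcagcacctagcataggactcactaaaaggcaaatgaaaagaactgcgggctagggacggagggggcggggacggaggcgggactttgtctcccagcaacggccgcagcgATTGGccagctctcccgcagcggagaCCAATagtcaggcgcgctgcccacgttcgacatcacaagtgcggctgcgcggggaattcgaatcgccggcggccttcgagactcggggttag
Nuf2: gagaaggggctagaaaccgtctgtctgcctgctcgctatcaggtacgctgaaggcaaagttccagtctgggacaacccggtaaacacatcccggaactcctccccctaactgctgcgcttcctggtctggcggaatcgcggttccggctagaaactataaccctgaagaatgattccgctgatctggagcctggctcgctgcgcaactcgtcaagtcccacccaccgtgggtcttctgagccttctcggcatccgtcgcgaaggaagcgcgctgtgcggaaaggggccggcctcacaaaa
Cenpf: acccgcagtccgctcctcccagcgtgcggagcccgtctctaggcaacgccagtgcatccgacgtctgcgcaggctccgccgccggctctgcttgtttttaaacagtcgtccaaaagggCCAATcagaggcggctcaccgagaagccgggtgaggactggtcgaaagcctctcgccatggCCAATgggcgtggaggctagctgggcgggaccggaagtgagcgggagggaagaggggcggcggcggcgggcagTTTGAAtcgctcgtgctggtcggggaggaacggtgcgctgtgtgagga
Hmmr: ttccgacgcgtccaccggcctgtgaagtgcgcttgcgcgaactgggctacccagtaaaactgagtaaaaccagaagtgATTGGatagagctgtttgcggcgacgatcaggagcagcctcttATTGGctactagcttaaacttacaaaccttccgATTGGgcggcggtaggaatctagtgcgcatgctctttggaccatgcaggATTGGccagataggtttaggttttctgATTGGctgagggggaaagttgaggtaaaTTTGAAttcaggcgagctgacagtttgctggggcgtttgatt
The Cenpf and Hmmr windows held both motifs, the Bub1 window CCAAT alone and the Nuf2 window neither.

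Windows were matched for 27 of the 33 G2/M genes, 220 of the 288 higher genes, 89 of the 128 lower genes and 8107 of all 10059 measured genes. CCAAT was found on either strand in 81.5% of the G2/M windows, in 59.5% of those of higher genes, in 33.7% of those of lower genes and in 38.8% of all windows. TTTGAA, chosen after the values were seen, was found in 74.1%, 35.0%, 12.4% and 11.4% of the same sets. Both motifs together were in 66.7% of the G2/M windows and in 4.71% of all windows. The other motifs searched, on both strands, were those known for the factors AP-1 (TGANTCA), for MYC and USF (CACGTG), for TEAD (GGAATG), for SP1 (GGGGCGGGG), for STAT (TTCNNNGAA), for the hypoxia response (ACGTG, part of the MYC motif), for bHLH factors (CAGCTG) and for the TATA box (TATAAA). The AP-1 motif was in 10.1% of the windows of lower genes (9 of 89), in 4.55% of those of higher genes and in 4.49% of all windows. The STAT motif was in 4.49% of the windows of lower genes, in 7.27% of those of higher genes and in 6.46% of all windows. These are matches of letters in a fixed window, and the genes of one list share functions, so they are given as a description.

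Genes of DNA replication were higher by less and less uniformly. Of 33 measured genes of the G1/S list, 10 were outside the range and higher and none was lower, and 28 lay above all 3 trio libraries. The median log2 difference was 0.79. Summed levels of the list were 1065 CPM in the single library and 724, 748 and 743 CPM in the trio, a ratio of 1.44. Rrm2, a subunit of the enzyme that makes deoxyribonucleotides, stood at 30.9 CPM against 9.13, 7.22 and 9.34 CPM (log2 fold change 1.84 ± 0.16, edgeR adjusted p = 4.4e-06). Uhrf1, which carries DNA methylation over to new strands, was at 30.8 CPM against 9.85, 10.02 and 10.7 CPM. Other genes of the same process stood close to the trio values. Mcm2, a subunit of the replicative helicase, was at 90.3 CPM against 99.9, 94.9 and 84.4 CPM, and E2f1 at 24.3 CPM against 28.8, 32.0 and 31.8 CPM. Pcna, the sliding clamp of DNA polymerase, was at 105 CPM against 84.4, 91.4 and 90.9 CPM.

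In 4 further sets, added after the values were seen, 11 of 25 measured kinesins, 5 of 16 centromere proteins named Cenp, 9 of 23 condensin and cohesin genes and 9 of 18 genes of homologous recombination and the Fanconi pathway were higher, and none was lower. Over all measured genes 2.86% were higher. Kif11, Kif20a, Kif23, Cenpa, Cenpe and Cenpf are in the G2/M list as well. Kif20b, a kinesin of cytokinesis, was at 34.3 CPM against 6.53, 4.71 and 5.998 CPM. Esco2, which acetylates cohesin in S phase, was at 12.1 CPM against 2.21, 1.25 and 2.16 CPM. Both were more than 5-fold above the highest trio library. Brca1, which acts in repair of double-strand breaks, was at 33.3 CPM against 11.6, 9.31 and 12.5 CPM, whereas Brca2 was at 5.40 CPM against 5.28, 5.49 and 6.11 CPM. Together the 6 sets held 70 of the 288 higher genes (24.3%). Outside them, 218 of 9917 measured genes (2.20%) were higher.

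Genes that hold back division or answer to p53 were mostly above the trio as well, by less. Of 23 measured CDK inhibitors and p53 targets, 1 was higher, Ckap2, itself a spindle gene, and none was lower. Of the 23, 17 lay above all 3 trio libraries and 2 below, with a median log2 difference of 0.34. Cdkn1a, the inhibitor p21, stood at 487 CPM in the single library and at 461, 487 and 446 CPM in the trio. Mdm2, the ligase that degrades p53, was at 976 CPM against 514, 492 and 509 CPM, above all 3 but inside the 2-fold rule. Ccnd1, cyclin D1 of G1 phase and a Wnt target, was at 740 CPM against 244, 240 and 257 CPM, the 1 gene of 21 measured in the Wnt list that was outside the range (log2 fold change 1.58 ± 0.10, edgeR adjusted p = 4.5e-07).

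**Figure D2:**
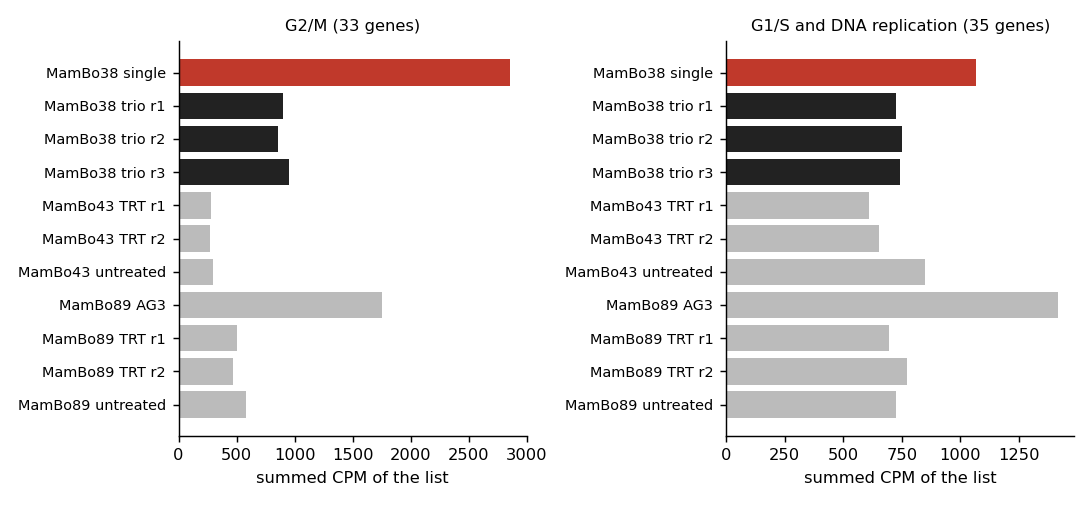
Bars give the summed CPM of the G2/M list (33 genes) and of the G1/S and DNA replication list (35 genes) in each library, red for the single library, black for the trio (r1 untreated, r2 trastuzumab then without, r3 60 days) and grey for the other lines (TRT, trastuzumab). The G2/M bar of the single library, at 2860 CPM, is longer than all 10 others, the next being AG3 at 1754 CPM.

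In the other lines the G2/M list summed to between 275 and 1754 CPM, so all 7 lay below the single library, and 6 of them also below the trio. Of the 33 genes, 26 were higher in the single library than in all 7, against 2465 of all 10059 measured genes. A gap of the same kind appeared in a pair with no MamBo38 library. Between AG3 and the other untreated MamBo89 library, which share a code, 28 of the 33 G2/M genes were 2-fold higher in AG3. The study lists a HER2-positive clone of MamBo89HER2stable among its samples, and the labels do not say whether AG3 is that clone. Of 208 of the higher genes with at least 5 CPM in that pair, 134 (64.4%) were 2-fold higher in AG3, against 7.41% of all 9171 measured genes. Of 77 lower genes, 13 (16.9%) were 2-fold lower in AG3, against 6.48% of all. In a second pair, MamBo43 after 60 days of trastuzumab against 30 days with and 30 without, 11 of 128 higher genes (8.59%) were 2-fold higher and 17 (13.3%) were 2-fold lower, against 1.41% and 1.47% of all 9440 genes. None of the 17 G2/M genes with 5 CPM there differed 2-fold in that pair. Each of these pairs is 1 library against 1 and has no replicate check.

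Chemokines and cytokines are secreted by stromal and tumor cells and draw leukocytes, and many are transcribed under NF-κB. Of 19 measured genes of the list for these and for acute phase proteins, 8 were higher in the single library and 3 were lower, so that 11 were outside the range and the list had no common direction (median log2 difference -0.17). Ccl9, a CC chemokine of myeloid cells, was at 27.6 CPM in the single library and at 0.769, 0.418 and 0.456 CPM in the trio. This was 35.9-fold above the highest of the 3 (log2 fold change 5.64 ± 0.23, edgeR adjusted p = 2.4e-08). Cxcl2, a chemokine for neutrophils, was at 25.9 CPM against 5.14, 3.22 and 2.88 CPM. Cxcl1, of the same family, was at 144 CPM against 52.4, 34.5 and 37.9 CPM. In both, the untreated trio library was the highest of the 3 and still well below the single library.

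Ccl5 and Ccl2, which attract T cells and monocytes, stood at 16.9 CPM against 2.74, 4.41 and 4.10 CPM and at 39.9 CPM against 11.3, 14.0 and 16.2 CPM. Il33, an alarmin of the IL-1 family, was at 28.8 CPM against 10.5, 6.32 and 6.53 CPM. The list also held 2 feedback inhibitors of NF-κB, which were higher too. Nfkbia was at 232 CPM against 76.1, 73.2 and 90.3 CPM, and Tnfaip3 at 117 CPM against 40.8, 24.6 and 25.7 CPM.

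The 3 lower genes of the list were Il6, Lcn2 and C3. Il6, the cytokine that signals through JAK kinases and STAT3, was at 4.95 CPM in the single library and at 59.1, 34.5 and 31.3 CPM in the trio (log2 fold change -3.07 ± 0.36, edgeR adjusted p = 6.9e-05). The 2 untreated libraries thus held the highest and the lowest value. Lcn2, lipocalin 2 of the acute phase, was at 0.723 CPM against 10.6, 7.34 and 7.21 CPM, and rested on 13 counts in the single library. In the other lines Lcn2 stood between 652 and 6335 CPM. C3, the central component of complement, was at 23.4 CPM against 102, 93.8 and 91.7 CPM.

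Genes around IL-6 signaling were looked at as a set added after Il6 was seen. The set held Il6 itself, receptors of the IL-6 family, JAK kinases and STAT3 targets. Of 25 measured, 8 were lower (Il6, Lcn2 and C3 among them) and 1 was higher, against 1.27% and 2.86% of all measured genes. Values were known when the set was made, so these shares are a description only. Of the 25, 20 lay below all 3 trio libraries (median log2 difference -0.65). Osmr, the oncostatin M receptor, was at 46.1 CPM against 129, 113 and 112 CPM. Bcl3, an IκB protein and STAT3 target, was at 5.67 CPM against 29.5, 31.6 and 27.7 CPM (log2 fold change -2.38 ± 0.17, edgeR adjusted p = 1.4e-06). Stat3 itself was inside the rule, at 196 CPM against 312, 305 and 304 CPM, as was Socs3, its feedback inhibitor, at 32.8 CPM against 55.5, 45.9 and 53.8 CPM. The higher gene was Lifr, the receptor of leukemia inhibitory factor, with 7.18 CPM against 2.16, 2.92 and 2.32 CPM.

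Complement and coagulation genes lay mostly below the trio. Of 13 measured, 4 were lower and 1 was higher, and 12 lay below all 3 trio libraries, with a median log2 difference of -0.93. The summed level was 460 CPM in the single library and 811, 831 and 850 CPM in the trio. Masp1, a protease of the lectin pathway, was at 24.3 CPM against 55.8, 56.2 and 48.8 CPM. F5, coagulation factor V, had no count in the single library and 6.01, 6.62 and 5.31 CPM in the trio, which was at least 31.8-fold lower against a floor of 3 counts in that library. The exception was Clu, the chaperone clusterin, at 65.6 CPM against 22.6, 25.2 and 32.3 CPM.

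Genes induced by interferon were higher in part. Of 32 measured, 5 were higher (Oasl1, Ifit1, Ifit3, Gbp4 and Oasl2) and none was lower, and 26 lay above all 3 trio libraries, with a median log2 difference of 0.42. All 5 stood under 14 CPM in the single library. Ifit1, a sensor of foreign RNA, was at 7.34 CPM against 0.913, 2.03 and 2.05 CPM. Gbp4, a GTPase induced by interferon, was at 13.8 CPM against 4.23, 3.16 and 5.16 CPM. Irf7, the factor that amplifies the response, was at 6.29 CPM against 2.07, 3.46 and 4.18 CPM, inside the rule. Bst2, which tethers virus particles to the cell surface, lay below all 3, at 72.7 CPM against 102, 131 and 126 CPM. Of 17 measured genes of MHC class I presentation, none was outside the range. Ifit3 and Apol9b share 41.1% and 43.3% of their 75-base windows with other transcripts, which makes their counts less certain.

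Tnfrsf9, the costimulatory receptor 4-1BB, had one of the largest differences among abundant genes. It was at 64.2 CPM in the single library and at 435, 359 and 293 CPM in the trio (log2 fold change -2.50 ± 0.20, edgeR adjusted p = 2.8e-06). The other 7 libraries stood between 0 and 20.9 CPM, so all 4 MamBo38 libraries lay above them.

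Matrix and protease genes were inside the range for the most part. Of 28 measured matrix proteases and inhibitors, 4 were lower and none was higher. Mmp11, stromelysin 3, was at 52.3 CPM in the single library and at 192, 266 and 254 CPM in the trio (log2 fold change -2.18 ± 0.18, edgeR adjusted p = 3.7e-06). Mmp13, collagenase 3, was at 20.6 CPM against 69.4, 51.4 and 64.3 CPM. Ctsl, cathepsin L, was at 1847 CPM against 4058, 4230 and 3963 CPM, and Ctsk, cathepsin K, at 1.84 CPM against 10.3, 13.5 and 11.2 CPM. With Lgmn, legumain, at 170 CPM against 387, 421 and 415 CPM, 3 of 11 lysosomal cathepsins and related genes were lower, in a set added after the values were seen. The other cathepsins differed by less. Ctsk rested on 33 counts in the single library.

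Of 21 measured collagens, 1 was higher and 2 were lower. Col8a1, a short-chain collagen, was at 109 CPM against 38.9, 34.7 and 36.3 CPM. Col4a4, a chain of basement membrane collagen IV, was at 0.445 CPM against 8.65, 8.83 and 6.07 CPM, and Col14a1 at 2.06 CPM against 8.74, 8.53 and 7.63 CPM. They rested on 8 and 37 counts in the single library. Of 32 glycoproteins and proteoglycans, Nid2 and Ogn were higher. Nid2, nidogen 2 of basement membranes, was at 10.01 CPM against 0.865, 0.835 and 0.797 CPM. Ogn, the proteoglycan osteoglycin, was at 271 CPM against 77.4, 55.4 and 85.6 CPM. Lama3, a laminin chain of epithelial basement membranes, was at 57.8 CPM against 12.3, 10.2 and 11.3 CPM. Fn1, fibronectin, was inside the rule at 15541 CPM against 23708, 25086 and 25597 CPM, and so below all 3.

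Mesenchymal genes did not differ by the rule. None of 25 measured mesenchymal genes, 6 epithelial genes, 19 integrins, 7 Hox genes or 19 YAP and TEAD targets was outside the range. All 6 epithelial genes measured, however, lay above all 3 trio libraries, with a median log2 difference of 0.58. Vim, vimentin, was at 3497 CPM in the single library and at 2004, 2240 and 2597 CPM in the trio. Twist1 was at 59.5 CPM against 47.9, 47.2 and 53.2 CPM and Zeb1 at 110 CPM against 106, 98.4 and 112 CPM. Of 13 measured smooth muscle and contractile genes, Acta2 alone was outside the range, with 26.5 CPM against 9.03, 8.47 and 7.44 CPM. For 12 of the 13, however, the single library lay above all 3 trio libraries, with a median log2 difference of 0.42.

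Growth factors and their receptors went both ways. Of 45 measured receptor tyrosine kinases and ligands, 4 were higher (Igfbp3, Mertk, Flt1 and Egfr) and Hgf was lower. Egfr was at 34.0 CPM against 16.3, 16.3 and 15.4 CPM. Mertk, a receptor for apoptotic cells, was at 15.02 CPM against 2.07, 2.98 and 3.34 CPM, and Flt1, a VEGF receptor, at 14.52 CPM against 3.03, 2.80 and 3.11 CPM. Hgf, the ligand of MET, was at 7.51 CPM in the single library and at 28.2, 18.97 and 22.02 CPM in the trio. In the other lines it was at most 0.307 CPM. Genes of the IGF axis lay on both sides. Igfbp3, which binds IGF, was at 14.6 CPM against 2.93, 1.97 and 2.35 CPM, and Pappa, the protease that cleaves IGF-binding proteins, at 1.84 CPM against 24.7, 22.5 and 22.2 CPM (log2 fold change -3.65 ± 0.21, edgeR adjusted p = 3.8e-07).

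In the TGF-β and BMP pathway, 2 of 32 measured genes were higher and 1 was lower. Bmp2, a ligand, was at 8.29 CPM against 1.06, 1.43 and 1.78 CPM. Fstl1, a secreted modulator of BMP signals, was at 50.1 CPM against 18.2, 13.96 and 14.54 CPM. Tgfbr1, the type I receptor of TGF-β, was at 24.1 CPM against 48.4, 49.4 and 57.4 CPM. In the Notch pathway, 2 of 10 were lower and none was higher. Hes1, a target of Notch, was at 20.6 CPM against 65.4, 85.5 and 89.1 CPM (log2 fold change -1.95 ± 0.18, edgeR adjusted p = 9.6e-06), and the receptor Notch2 at 51.3 CPM against 111, 114 and 106 CPM.

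The largest difference among the lower genes named by size was that of Tenm2, a teneurin of synaptic adhesion. It was at 6.67 CPM in the single library and at 216, 241 and 182 CPM in the trio, 27.2-fold below the lowest of the 3 (log2 fold change -4.99 ± 0.21, edgeR adjusted p = 2.8e-08). Of 38 measured axon guidance genes, 3 were higher and 2 were lower. Unc5c, a netrin receptor, was at 10.2 CPM against 0.817, 0.537 and 1.33 CPM and its relative in the pathway, the ligand Ntn4, at 21.03 CPM against 7.83, 8.23 and 7.29 CPM. Slit1 and Slit2, ligands of ROBO receptors, were lower, at 1.95 CPM against 9.94, 12.0 and 7.82 CPM and at 67.6 CPM against 173, 141 and 137 CPM. Sncg, γ-synuclein, was at 25.03 CPM against 2.35, 3.28 and 3.68 CPM. In the other lines it was at most 0.163 CPM.

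Among the remaining genes with the largest differences, Apod, a lipocalin that binds lipids, was at 64.9 CPM against 5.28, 6.26 and 7.82 CPM. Cdo1, cysteine dioxygenase, was at 42.4 CPM against 5.00, 4.29 and 7.25 CPM, and Spns2, a transporter of sphingosine-1-phosphate, at 20.97 CPM against 2.55, 3.64 and 5.62 CPM. Parpbp, which limits homologous recombination, was at 26.03 CPM against 4.56, 3.34 and 3.30 CPM, and Sgo2a, a protector of cohesin, at 35.0 CPM against 7.69, 5.55 and 8.01 CPM. The groups were far apart in each case, with the single library at 3.73-fold or more past the range. On the lower side, Tiam1, an activator of RAC1, was at 6.90 CPM against 28.7, 30.1 and 22.7 CPM. Ostn, the secreted peptide osteocrin, was at 32.8 CPM against 132, 120 and 102 CPM. Dennd2d, Mctp2 and Fibin were 3.20-fold, 3.04-fold and 3.10-fold below the lowest trio library. Snhg4, an RNA host of small nucleolar RNAs, was 4.48-fold below it, but 72.8% of its 75-base windows occur in other transcripts.

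**Figure D3:**
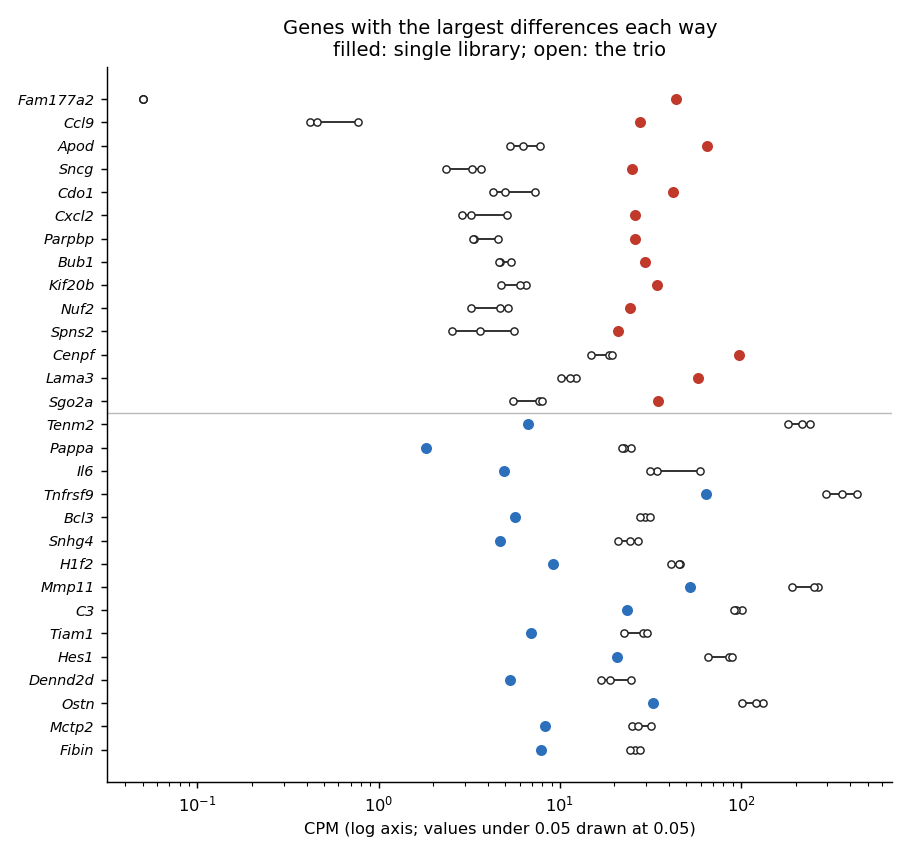
Points give CPM on a log axis for 29 of the 30 genes with the largest log2 differences (at least 20 CPM on the higher side), filled for the single library (red higher, blue lower) and open for the trio, joined by a line. The filled point lies outside the open ones for all 29 genes, 35.9-fold above them for Ccl9 and 27.2-fold below them for Tenm2. Fam177a2, at 0 in the trio, is drawn at 0.05 CPM.

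Fam177a2 ranked first, at 43.6 CPM in the single library and with no count in the trio, but it is uncertain. All of its 75-base windows also occur in other transcripts, mainly of Fam177a, which was lower (17.7 CPM against 41.5, 39.5 and 49.7 CPM). The sum of both was 61.3 CPM in the single library and 41.5, 39.5 and 49.7 CPM in the trio, inside the rule. Gvin1 (3 counts in the single library, a ratio of 14.8 to 211 by an exact 95% interval for counting error) and Gm28539 (no count, at least 28.2-fold lower) also share over 95% of their windows with other genes. Of the 416 genes, 58 shared more than 10% of their windows and 9 more than 50%. In the G2/M list 5 genes were over 10%. Of other genes named here, Sgo2a shared 33.1%, Ctsl 24.6%, Ccnd1 20.6%, Dennd2d 13.7%, Ankrd37 13.3% and Cryab 11.5%.

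Ribosomal protein genes differed as a block and not singly by the rule. Of 76 measured ribosomal protein genes, none was outside the range, yet 68 lay below all 3 trio libraries, with a median log2 difference of -0.31. Their summed level was 62611 CPM against 73000, 83912 and 78275 CPM. Of 74 subunits of oxidative phosphorylation none was outside the range, and their median log2 difference was -0.04. None of 23 genes of cholesterol synthesis and none of 36 genes of the unfolded protein and amino acid responses was outside it. Replication-dependent histone genes, whose messages mostly lack a poly(A) tail, summed to 27.6 CPM in the single library and to 64.9, 69.1 and 68.6 CPM in the trio. Of 3 measured, H1f2, a linker histone, was the 1 outside the range, at 9.18 CPM against 41.3, 45.9 and 45.7 CPM. Their lower level stood beside the higher level of the replication genes above.

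Immediate early genes, which answer within minutes to serum and handling, lay mostly below the trio as well. Of 25 measured, 18 lay below all 3 trio libraries (median log2 difference -0.27), but only Klf2 was outside the range, at 2.61 CPM against 11.6, 12.9 and 18.5 CPM. Fos was at 63.6 CPM against 127, 96.99 and 136 CPM, whereas Egr1 was at 684 CPM against 444, 567 and 516 CPM.

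**Figure D4:**
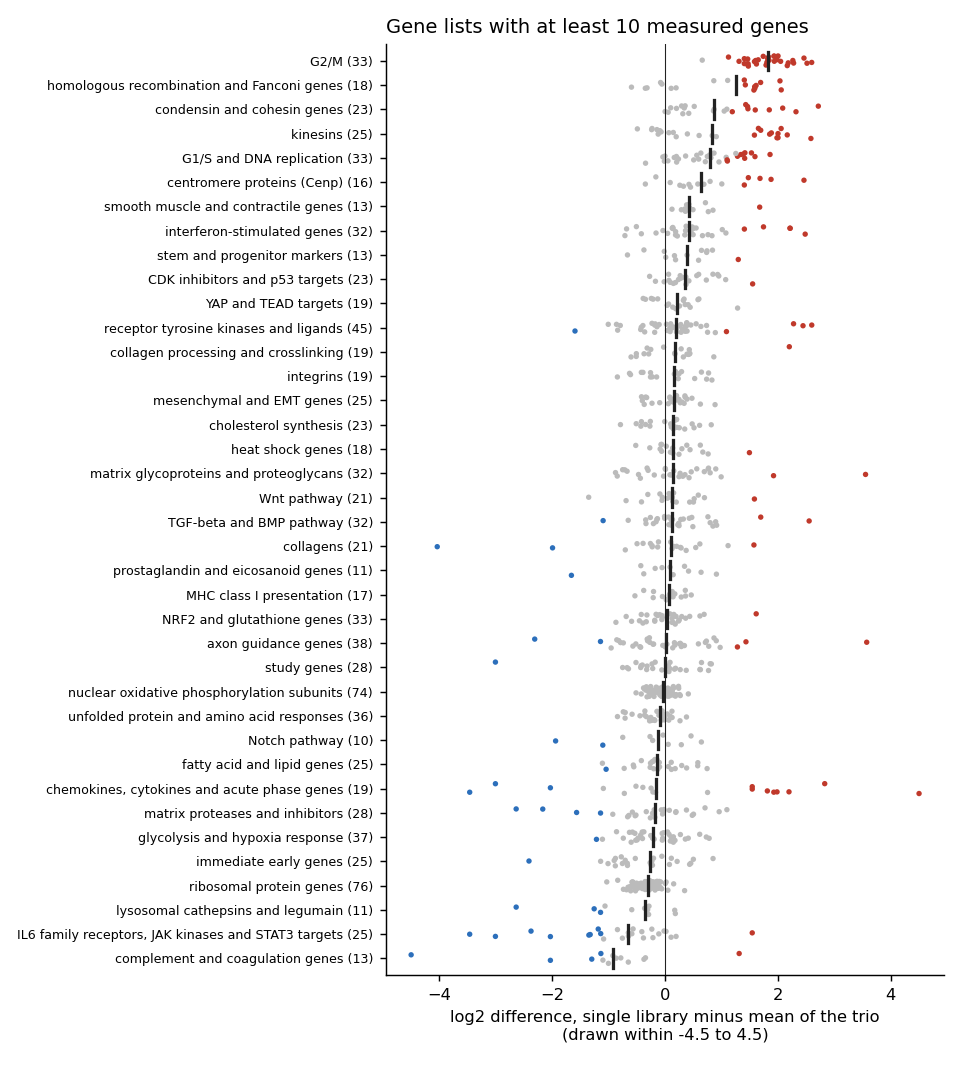
Each point is a measured gene of a list, placed by its log2 difference (single library minus the mean of the trio; the axis is clipped at both ends), red if higher and blue if lower by the 2-fold rule. Black bars are list medians, from -0.93 for complement and coagulation genes to 1.82 for the G2/M list, and the number of measured genes stands in brackets.

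Single members of other lists completed the set. Fabp5 was the 1 lower gene of 25 for lipids, Ankrd37 of 37 for glycolysis and hypoxia, Ptgir of 11 for prostaglandins and Taf7l of 2 germline genes. Cryab was the 1 higher gene of 18 for heat shock, Gsta4 of 33 for the NRF2 response, Nes of 13 for stem and progenitor markers, Dmp1 of 8 for other lineages and Pcolce2 of 19 for collagen processing. Cryab, a small heat shock protein, was at 286 CPM against 91.5, 92.6 and 123.4 CPM. None of 5 measured imprinted genes was outside the range.

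The genes that the study followed in its own assays or named from its RNA sequencing were nearly all within the rule. Of 28 measured, Il6 alone was outside the range, and the median log2 difference was 0.00. Il6 differed more between the codes than among the trastuzumab schedules of the trio, where its values ran from 31.3 to 59.1 CPM. Ptgs2 was at 2344 CPM against 2605, 2126 and 1937 CPM, Sparc at 1269 CPM against 699, 748 and 790 CPM, and Cd44 at 289 CPM against 184, 175 and 196 CPM. Cav1, caveolin 1, had the largest difference upward of this list, with 373 CPM against 217, 189 and 230 CPM.

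The other lines carry the code of the single library, so their levels were set beside both codes. In such a comparison the other lines and the code cannot be told apart. All 7 of those libraries lay above the trio for 28 of the 288 higher genes (9.72%), against 11.7% of all measured genes. They lay below it for 42 of the 128 lower genes (32.8%), against 18.1% of all. For 51 of the 128 lower genes, the single library stood below all 7 other libraries as well, against 1817 of all 10059 measured genes. For 165 of the 288 higher genes it stood above all 7, against 2465 of all 10059. The genes were chosen by their trio and single-library values, so these shares partly follow from the rule.

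Genes were also described by position and sequence composition. On chromosome 3 the median log2 difference of 495 measured genes was -0.27, and 67.1% of them lay below all 3 trio libraries. On chromosome 8 the median of 558 genes was -0.15. The other chromosomes had medians between -0.06 and 0.12, and each library of the trio, against their mean, had medians between -0.05 and 0.04. In windows of 20 neighbouring measured genes, the median was below 0 in all 25 windows of chromosome 3 and in 26 of 28 windows of chromosome 8, against 243 of 503 windows in all. Chromosome 3 held 9 higher and 9 lower genes (1.82% each), and chromosome 8 held 4 and 11 (0.717% and 1.97%). Over all measured genes the shares were 2.86% and 1.27%. Chromosomes 16 and 18 had larger shares of lower genes (3.09% and 3.08%).

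**Figure D5:**
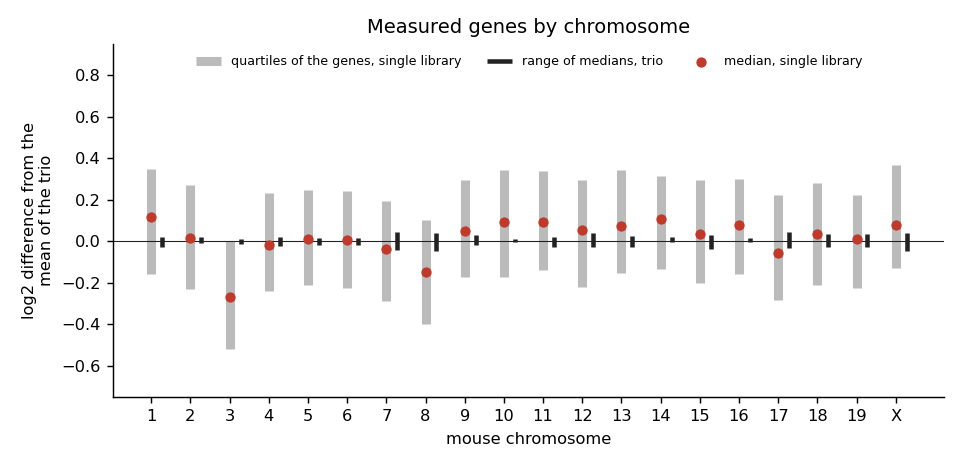
Red points are the median log2 difference of measured genes on each mouse chromosome (the single library minus the mean of the trio), grey bars the quartiles of those genes, and black bars the range of medians of the 3 trio libraries. Chromosomes 3 (-0.27) and 8 (-0.15) lie below the other chromosomes.

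The log2 difference also moved with the GC content of transcripts. In 5 bins of the measured genes by GC content, the median was 0.21 in the lowest bin (33.7 to 44.5% GC) and -0.17 in the highest (55.9 to 72.3% GC). The libraries of the trio, each against their mean, stayed between -0.12 and 0.07 in these bins. The G2/M genes had a median GC content of 46.6%, against 50.2% for all measured genes, 47.7% for the higher and 52.0% for the lower genes. With the median of its bin taken off each gene, a correction chosen after the values were seen, the G2/M list had a median log2 difference of 1.73 and chromosome 3 one of -0.34. The number of higher genes was then 271, of which 257 were shared with the 288, and that of lower genes was 124, of which 104 were shared. The part of GC content in the single genes was not tested otherwise.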

How the data were processed

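The deposited table holds expected counts for 21846 mouse genes in 11 libraries, which the authors obtained with STAR 2.5 and RSEM 1.3.0 from unstranded, poly(A)-selected TruSeq libraries read in single-end mode over 75 bases. The build is mm10 per the labels' processing notes, and the annotation version is not given in the sources used here. All values were whole and were not rounded. Library sizes were scaled by TMM over the 11 libraries (edgeR 4.0.16, R 4.3.3). A gene was measured at 5 CPM or more in the single library or on average in the trio. Log2 differences add 0.5 counts to each library, and list medians are over measured genes.

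edgeR's glmQLFTest compared 1 library with 3 after filterByExpr (minimum count 10, minimum total 15), with Benjamini-Hochberg adjustment over all genes tested. The SE printed is the absolute log2 fold change over the square root of F. The p-values measure only the spread within the trio, whose libraries also differ in trastuzumab schedule. The script was tested on simulated data. DESeq2 1.42.0 was an alternative.

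Named genes were the 15 with the largest log2 difference each way (at least 20 CPM on the higher side, no predicted genes), members of gene lists outside the range (up to 4 each way as examples), genes the study followed, and markers. Other genes of a list were named after their values were seen. Single values of some genes are not reported here. The comparison, members and lists were chosen with earlier results of these data known. Coordinates and transcripts are of GENCODE M21 on GRCm38, which held 21804 of the identifiers, and promoter windows are of RefSeq. Intervals and the floor of 3 counts cover counting error only.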

Additional observations from a re-analysis of the deposited data

How the results depend on the processing

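No paired analysis was possible because 1 library stands on one side and the labels give no replicate numbers. The counts of 288 higher and 128 lower genes stayed within 1.5 times under RLE size factors, TMM over the 4 MamBo38 libraries, total counts, the untreated libraries alone (378 and 183) and the correction for GC content chosen after the data were seen. Leaving out each trio library gave 294 to 337 higher and 138 to 182 lower genes. The filter and the fold moved them by construction. They were 428 and 234 at a minimum of 1 CPM, 144 and 57 at 20 CPM, 1198 and 585 with no minimum, 681 and 484 at a fold of 1.5, and 107 and 39 at a fold of 3. The higher genes remained the more numerous under each. The 41 genes with a 2-fold spread inside the trio became 245 at a minimum of 1 CPM and 297 at a fold of 1.5.

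edgeR calls (1046) were 920 to 1188 under the other scalings, no filter, an adjusted p under 0.05 and without each trio library (926 to 1030, with 563 to 632 higher and 363 to 412 lower), and 746 in DESeq2. With all 11 libraries in the fit they were 588 (396 higher and 192 lower), and the cause was not tested. The fit of 4 libraries had 5019 genes at an unadjusted p under 0.05. The G2/M median of 1.82 ranged from 1.78 to 1.86 without each trio library and was 1.73 after the GC correction, and 31 to 33 of its genes were outside the range at every setting except a fold of 3 (20 genes). The chromosome 3 median of -0.27 was -0.28 at 20 CPM and -0.34 after the GC correction. Among 1432 recomputed values, no named gene outside the range changed its direction. Named genes inside the range were not checked for this. Over all settings, 69 of 301 recomputed list medians and 16 of 40 chromosome medians moved by more than the spread of the trio. A change of direction was not checked for these medians. Depth limits genes at a few CPM, since 3 counts correspond to 0.114 to 0.179 CPM.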
